A study of Mus musculus with 2 samples.

Results

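Macro is a population of macrophages from YUMM3.3 melanomas, chosen here as every cell that carries the label Macro in the deposited cell table. It held 126 of the 7815 CD45+ cells of both libraries, 100 of 2975 cells in the NTT library and 26 of 4840 in the RTT library. YUMM3.3 is a mouse melanoma line with a Braf V600E allele and deletion of Cdkn2a, so both tumours carried these alleles. NTT is the line never exposed to targeted therapy, RTT is its derivative with acquired resistance to such therapy, and the labels give no drug dose. Each was grown under the skin of C57BL/6 mice and harvested on day 12 according to the series record, while the methods of the study name another day. Live CD45+ cells were sorted and sequenced with the 10x Genomics 3′ chemistry. Each condition had 1 library, so line, mouse, sort and library cannot be told apart, and all values below are descriptions with no test of significance. Intervals are exact 95% intervals that cover counting error only, in molecules or in cells.

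Tissue macrophages form a network of phagocytic cells in almost every organ. In many organs a subset that lies along vessels and nerves carries the hyaluronan receptor Lyve1, the folate receptor Folr2, the mannose receptor Mrc1 and the haemoglobin scavenger receptor Cd163. Tumours also recruit Ccr2-bearing monocytes from the blood, and these can differentiate into tumour-associated macrophages (TAMs), which often take up lipids, present antigen or divide.

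Macro formed 3.36% of CD45+ cells in NTT (2.74% to 4.07%) and 0.537% in RTT (0.351% to 0.786%). Among cells with a macrophage label the share was 17.2% of 582 cells in NTT (14.2% to 20.5%) and 0.649% of 4009 cells in RTT (0.424% to 0.949%). The 2 pairs of intervals did not overlap, but a share also depends on how many other cells were caught in the sort. The NTT comparison cells were 482 cells with a TAM label (169 TAM_H2Ab1, 193 TAM_Spp1, 103 TAM_cycling and 17 TAM_C1q), 984 Monocyte_1 cells and 620 Infl_Mono cells. The 2 libraries held 19634099 and 44712071 unique molecular identifiers (UMIs, each standing for 1 captured mRNA molecule), with a median of 5398 per cell in NTT and 8335.5 in RTT. The 100 NTT Macro cells summed to 694312 UMIs with a median of 5988 per cell, and the 26 RTT Macro cells to 170422 UMIs with a median of 5075. Median depth in the comparison cells of NTT ranged from 4811 in Infl_Mono to 18157 in TAM_cycling. Both libraries shared 7 barcode sequences, and 0 of them belonged to a Macro cell.

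Levels are given as CPM, the UMIs of a gene summed over all cells of a label and library, divided by the summed UMIs of those cells and scaled to 1000000. The labels were drawn from clusters of the same gene counts, so a difference between labels in these genes describes the labels and is not independent evidence for them.

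Of the 3 genes given as markers of Macro, the CC chemokines Ccl6 and Ccl9 marked it and the matrix proteoglycan gene Vcan did not mark it alone. Ccl6 stood at 9955 CPM in NTT Macro (9722 to 10193), 2849 in TAM_C1q, 2484 in TAM_Spp1, 1215 in Infl_Mono, 405 in Monocyte_1, 133 in TAM_cycling and 98.0 in TAM_H2Ab1. Ccl9 stood at 2751 CPM in NTT Macro (2629 to 2877), 1130 in TAM_C1q, 1014 in TAM_Spp1, 553 in Infl_Mono, 202 in Monocyte_1, 42.1 in TAM_cycling and 21.8 in TAM_H2Ab1. In both genes Macro was the highest label, and TAM_C1q and TAM_Spp1 came next with intervals that overlapped each other. Vcan stood at 351 CPM in NTT Macro (309 to 398) against 666 in TAM_Spp1 (617 to 718) and 562 in Infl_Mono (537 to 589). Macro was thus below these 2 labels for Vcan, and above Monocyte_1 at 106, TAM_cycling at 10.0 and TAM_H2Ab1 at 1.36. Outside the comparison labels, Vcan stood at 416 CPM in 14 Myofibrobl cells (311 to 546). Ccl6 stood at 961 CPM in 11 Monocyte_3 cells and 850 in 91 Neutro cells of NTT.

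**Figure D1:**
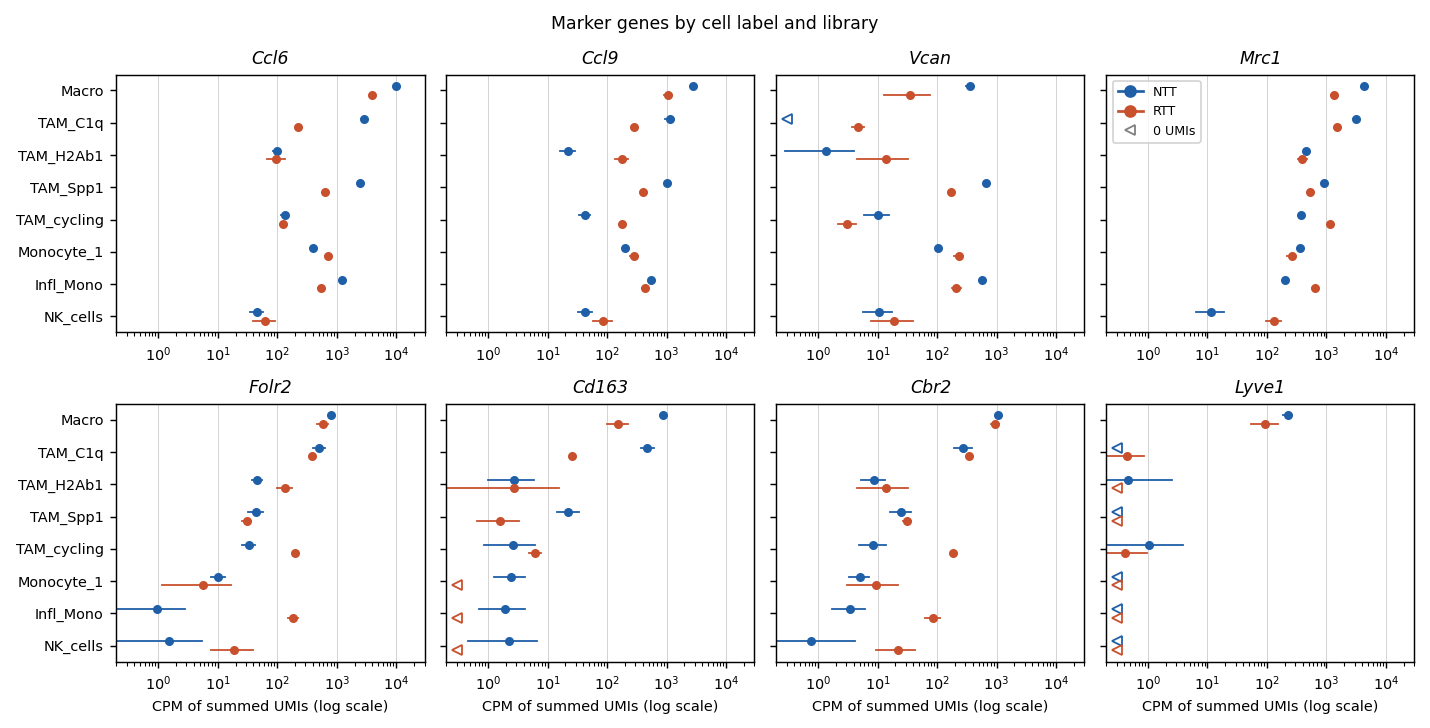
Level of marker genes by label and library, in CPM on a log axis; each point is the summed UMIs of 1 label in 1 library (blue NTT, orange RTT), bars are exact 95% Poisson intervals, and open triangles mark 0 UMIs. Ccl6 and Ccl9 were highest in Macro in both libraries (9955 and 2751 CPM in NTT), while Vcan in NTT was higher in TAM_Spp1 (666 CPM) than in Macro (351 CPM).

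Shares of cells with at least 1 UMI were taken after thinning every cell to 2000 UMIs, which left out 3 of the 100 NTT Macro cells as too shallow. Ccl6 was found in 99.0% of the other 97, Ccl9 in 91.8% and Vcan in 34.0%, and without thinning in 100%, 98.0% and 44.0% of the 100 cells. In 164 thinned NK cells of NTT, which should lack these genes, the shares were 5.49%, 3.05% and 1.83%, at a median depth before thinning of 5358.5 UMIs over all NTT NK cells. Vcan was found in 49.7% of thinned TAM_Spp1 cells and 45.8% of thinned Infl_Mono cells. All 3 genes thus lay above the NK level in Macro, and Vcan was the least widespread of them.

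Ccl6 and Ccl9 are neighbours in the CC chemokine cluster of chromosome 11 (GRCm38), at chr11:83587882-83593087 and chr11:83572919-83578636, both on the minus strand. Vcan lies at chr13:89655312-89742509 on the minus strand. The 250 bases before the start of each chemokine gene are shown, since both were highest in Macro, at chr11:83593088-83593337 for Ccl6 and chr11:83578637-83578886 for Ccl9, read 5′ to 3′ on the gene's strand from the GRCm38.p6 genome of RefSeq. Capitals mark CTTCCT, the letters of AGGAAG on the other strand, a core that ETS factors such as PU.1 can bind.
Ccl6: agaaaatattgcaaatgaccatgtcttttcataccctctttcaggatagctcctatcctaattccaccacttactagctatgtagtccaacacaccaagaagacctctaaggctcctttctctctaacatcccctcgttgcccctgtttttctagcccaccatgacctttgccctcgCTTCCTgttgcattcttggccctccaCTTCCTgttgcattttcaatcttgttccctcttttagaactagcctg
Ccl9: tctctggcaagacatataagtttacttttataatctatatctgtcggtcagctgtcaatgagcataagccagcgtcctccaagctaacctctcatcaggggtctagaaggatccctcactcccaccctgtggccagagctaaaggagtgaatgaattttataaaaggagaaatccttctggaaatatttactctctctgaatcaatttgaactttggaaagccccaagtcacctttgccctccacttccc
The Ccl6 window held these letters at -73 and -47 and the Ccl9 window held none, against 29.5% of 32851 windows of the same length before annotated genes, on either strand. The motif was chosen after the sequences were seen. TGCTGA (16.1% of windows), GAGGAA (23.3%) and TTGCNNAA (9.56%), searched on both strands, were in neither window. A match is a description of letters only.

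Several of the genes with the largest ratios of Macro over other labels within NTT are known from resident tissue macrophages. In NTT Macro 1215 genes had at least 100 UMIs, with no limit on the share in 1 cell. Among these, 47 were at least 2-fold higher in Macro than in each of the 10 other NTT labels with at least 50 cells. These are called leading genes, and their folds are over the highest of these 10 labels, which leave out the 17 TAM_C1q cells. Of the 47, 14 stood on a list of 22 resident macrophage genes and 7 on a list of 21 genes of the clathrin coat and sorting machinery, the latter list chosen after values had been seen. A gene could enter only with 100 UMIs in Macro itself. The members of each list among the 1215 are not given, so both counts are descriptions only. The leading gene by ratio was Cbr2, a carbonyl reductase, 41.4-fold above the highest of the 10 labels but 3.78-fold above TAM_C1q. Cd163 was 38.9-fold above the 10 labels and 1.84-fold above TAM_C1q, and Folr2 17.6-fold and 1.58-fold. Lyve1 was at least 33.5-fold above the floor of 3 UMIs in Neutro, the comparison label with the fewest UMIs, where it was listed at 0.

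The level of Cbr2 was 1046 CPM in NTT Macro, 277 in TAM_C1q, 25.3 in TAM_Spp1, 8.62 in TAM_H2Ab1, 8.43 in TAM_cycling, 4.98 in Monocyte_1 and 3.50 in Infl_Mono. Cd163 stood at 870 CPM in Macro, 474 in TAM_C1q, 22.4 in TAM_Spp1, 2.72 in TAM_H2Ab1, 2.63 in TAM_cycling, 2.40 in Monocyte_1 and 1.91 in Infl_Mono. Folr2 stood at 808 CPM in Macro, 510 in TAM_C1q, 45.8 in TAM_H2Ab1, 43.8 in TAM_Spp1, 33.2 in TAM_cycling, 10.3 in Monocyte_1 and 0.954 in Infl_Mono. For these genes the only label near Macro was TAM_C1q, which held 17 cells in NTT, too few for the list of comparison labels. Lyve1 stood at 222 CPM in Macro and at 0 UMIs in TAM_C1q, Monocyte_1 and Infl_Mono, and Macro cells held 154 of its 157 NTT UMIs. Those 154 UMIs came from 14 cells, with 20.1% in 1 cell. Macro cells were 3.36% of the library but held 83.7% of the Cbr2 UMIs, 81.7% of Cd163, 61.9% of Folr2, 47.1% of Ccl8 and 40.1% of Ccl6.

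The other leading genes among the 15 with the largest ratios covered several roles. Gja1, the gap junction protein connexin 43, was 12.8-fold above the highest of the 10 labels, and Ltc4s, the synthase of leukotriene C4, 12.3-fold. Stard8 (8.58-fold), a GTPase-activating protein, Npl (8.17-fold), a sialic acid lyase, and Gas6 (7.44-fold), a ligand of the receptors Axl and Mertk, followed. Pf4 (7.43-fold) and Ccl8 (5.81-fold) are chemokines, Stab1 (6.0-fold) is a scavenger receptor, Wwp1 (6.62-fold) a ubiquitin ligase, Rcn3 (5.64-fold) a calcium-binding protein of the secretory pathway and Dhrs3 (4.99-fold) a reductase of retinal. Mrc1, the mannose receptor, was 4.69-fold above the highest of the 10 labels, 1.36-fold above TAM_C1q and found in 94 of the 100 cells. Ccl6, found in all 100, was 4.01-fold above the 10 labels and 3.49-fold above TAM_C1q. Against the 17 TAM_C1q cells, 19 of the 47 leading genes were at least 2-fold higher in Macro and 5 were higher in TAM_C1q, among them Pf4 at 6413 CPM against 3244.

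Macro was then set against all 482 TAM cells of NTT summed. Of 6360 genes with at least 100 UMIs over both sets, 313 were at least 2-fold higher in Macro (4.92%) and 590 at least 2-fold lower (9.28%), with a median log2 ratio of -0.06 over all genes. Of the resident macrophage list of 22 genes, all in the matrix, 18 reached the minimum. Of these, 17 were higher and 0 lower, with a median log2 ratio of 3.17. Some reached the minimum only with the UMIs of Macro, so their place among the higher genes follows in part from the minimum. Lyve1 had 154 UMIs in Macro and 3 in the pool, Cbr2 726 and 99, and Cd163 604 and 99. The list was chosen with earlier results known, so its counts here and below are descriptions only. One of the 17, the lectin gene Cd209a, also stands on the list for cDC2 and DC3, and without it 16 of 17 were higher with a median of 2.99. The 20 genes that the study lists for a Ccl6-marked macrophage cluster gave 15 higher and 2 lower with a median of 2.23, but that list came from a map that held these cells and is not independent. By weight of UMIs the TAM pool was 41.9% TAM_H2Ab1, 36.0% TAM_cycling, 19.5% TAM_Spp1 and 2.60% TAM_C1q.

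The 10 genes farthest above the TAM pool were Lyve1, Cbr2, Cd163, Gja1, Rcn3, Clec10a, Ednrb, Ltc4s, Ccl6 and Folr2. Cbr2 was at 1046 CPM in Macro and 18.8 in the pool, a log2 ratio of 5.80 (5.49 to 6.12). Clec10a, a lectin for galactose-type sugars, was at 337 and 15.9 CPM, a log2 ratio of 4.40 (4.04 to 4.78). Ednrb, an endothelin receptor, was at 313 and 15.2 CPM, a log2 ratio of 4.36 (3.99 to 4.75). Ccl6 was at 9955 and 648 CPM, a log2 ratio of 3.94 (3.88 to 4.00). The ratio of Lyve1, 8.61, rested on 3 UMIs in the pool and had an interval from 7.03 to 10.90.

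The genes farthest below the pool were Cd300e, Cadm1, Fcrl5, Mmp13, Acp5, Rgs1, Zmynd15, Hist1h2ap, Cd72 and Lipg. Acp5, the tartrate-resistant acid phosphatase, was at 25.9 CPM in Macro and 1047 in the pool, a log2 ratio of -5.34 (-6.09 to -4.67). Cd72, an inhibitory lectin-like receptor, was at 70.6 and 1836 CPM, a log2 ratio of -4.70 (-5.14 to -4.30). Both were low in TAM_Spp1 too, at 85.6 CPM for Acp5 and 59.3 for Cd72, so the pool owed its level to TAM_H2Ab1 and TAM_cycling. Cd300e, Cadm1 and Fcrl5 had 1 UMI each in Macro, with log2 ratios of -7.37 (-12.67 to -4.89), -7.26 (-12.57 to -4.78) and -7.00 (-12.30 to -4.52). Lipg, a lipase, had 0 UMIs in Macro and 584 in the pool, a log2 ratio of -4.68 or lower against the floor of 3 UMIs.

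**Figure D2:**
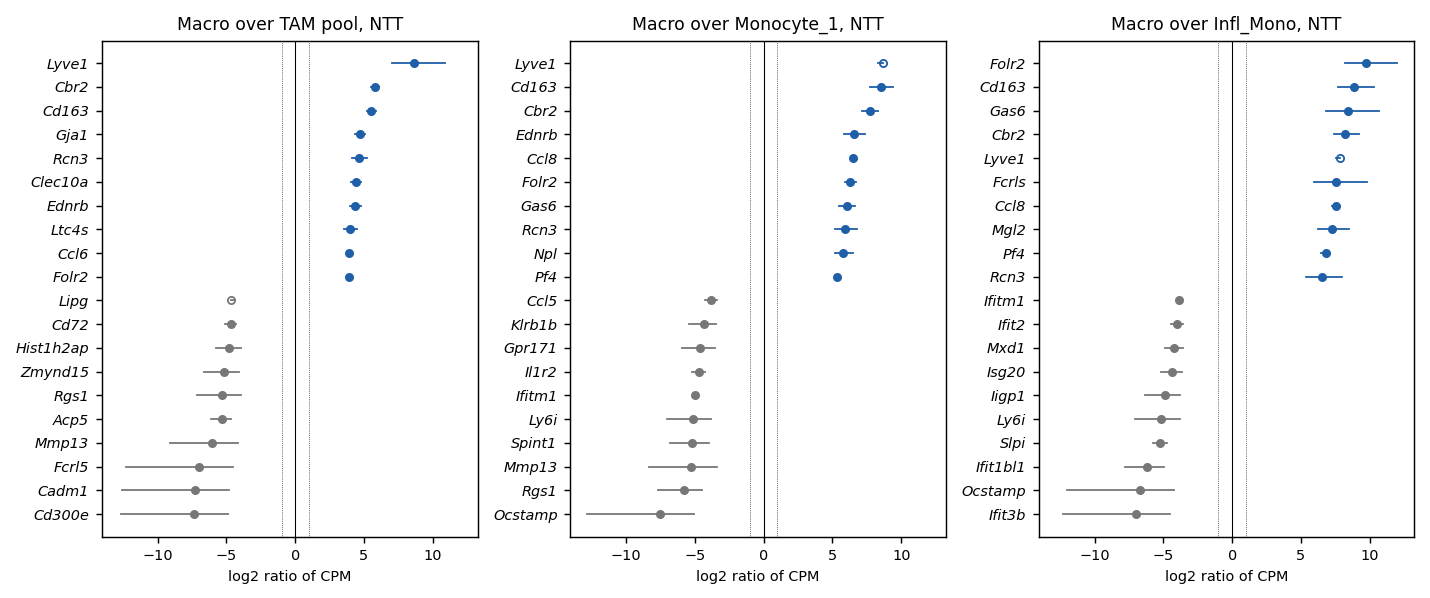
Log2 ratio of NTT Macro over the TAM pool, Monocyte_1 and Infl_Mono for the genes farthest from 0 in each comparison; points are ratios of CPM, bars exact 95% binomial intervals, open points genes with 0 UMIs on one side, set against the floor of 3 UMIs, and dotted lines 2-fold. Cbr2, Cd163, Lyve1, Folr2 and Rcn3 appear on the high side in all 3 panels, at log2 ratios of 5.80, 5.53, 8.61, 3.93 and 4.63 over the TAM pool.

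Chemokine genes split. Of 18 chemokine genes that reached the minimum against the TAM pool, 5 were 2-fold higher (Pf4 together with Ccl6, Ccl8, Ccl9 and also Ccl24) and 9 lower, with a median log2 ratio of -0.94. Ccl8 was at 5329 CPM in Macro and 699 in the pool, a log2 ratio of 2.93 (2.86 to 3.0), and Ccl24, which draws eosinophils, at 480 and 47.1 CPM, a log2 ratio of 3.35 (3.11 to 3.59) with 27.0% of its Macro UMIs in 1 cell. Ccl4 was at 59.1 and 895 CPM, a log2 ratio of -3.92 (-4.40 to -3.48), and Cxcl16 at 197 and 808 CPM, a log2 ratio of -2.03 (-2.29 to -1.79). Cxcl9, which draws T cells, was at 131 and 384 CPM, with 56.0% of its Macro UMIs in 1 cell. The monocyte chemoattractants Ccl2 and Ccl7 were not 2-fold apart, at log2 ratios of 0.14 and 0.23.

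Uptake genes and genes of alternative activation were mostly higher in Macro than in the pool, of which TAM_C1q made up 2.60% of UMIs. Over the 17 TAM_C1q cells the folds were smaller, at 0.95 for Stab1, 1.36 for Mrc1, 1.58 for Folr2, 1.84 for Cd163 and 2.03 for Fcgrt. Lyve1 had 0 UMIs in TAM_C1q. Most of these genes thus did not set Macro 2-fold apart from TAM_C1q. Of 17 scavenger and uptake receptor genes, 9 were higher, including Cd163, Folr2, Lyve1, Mrc1, Stab1, Mertk and the neonatal Fc receptor Fcgrt, and 2 were lower (Axl and Fcgr4), with a median log2 ratio of 1.41. Mrc1 was at 4217 CPM in Macro and 582 in the pool, a log2 ratio of 2.86 (2.78 to 2.93). Of 10 alternative activation genes, 7 were higher and 1 was lower (Il10), with a median of 2.74. Arg1, the arginase, was at 1554 and 252 CPM, a log2 ratio of 2.62 (2.51 to 2.74). Of the 21 coat and sorting genes, 8 were higher and 0 lower with a median of 0.46. The higher ones included the clathrin heavy chain Cltc (1.47) and the AP-2 subunits Ap2a2 (2.11) and Ap2m1 (1.77). This list was chosen after values had been seen, so its count follows in part from the choice.

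Classical macrophage genes were mixed. Of 16 core macrophage genes, 5 were higher (Apoe, Csf1r, Ctsd, Mertk and Trem2) and 3 lower (C1qa, C1qc and Ms4a7), with a median of 0.36. Apoe, the lipoprotein, was at 10583 CPM in Macro and 5054 in the pool, a log2 ratio of 1.07 (1.03 to 1.10), and the growth factor receptor Csf1r at 913 and 447, a log2 ratio of 1.03 (0.90 to 1.16). The complement gene C1qa was at 3654 and 7627 CPM, a log2 ratio of -1.06 (-1.12 to -1.0). Of 15 monocyte genes, 7 were higher and 0 lower with a median of 0.68, including the chemokine receptor Ccr2 at 1.97, fibronectin (Fn1) at 1.98 and Plac8 at 1.46. Macro therefore carried more of both resident and monocyte genes than the TAM pool did.

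Of 26 transcription factor genes, 6 were higher (Hif1a, Klf2, Klf4, Maf, Mitf and Tfec) and 4 lower (Id2, Nr1h3, Pparg and Runx3). Maf, a factor of macrophage identity and self-renewal control, was at 1894 CPM in Macro and 405 in the pool, a log2 ratio of 2.23 (2.13 to 2.33). All 17 cell cycle genes were 2-fold lower, with a median of -2.54, against a pool that held TAM_cycling. Without TAM_cycling the ratios of Mki67 and Top2a changed sign, to 0.38 and 0.36. In Macro 83.3% of the 18 Mki67 UMIs and 55.6% of the 9 Top2a UMIs came from 1 cell for each gene. Ratios of the other cell cycle genes without TAM_cycling are not given. Of 10 MHC class II genes 0 were 2-fold apart, with a median of 0.22, and of 24 interferon response genes 0 were higher and 5 lower (Cd274, Cxcl9, Gbp2, Gbp4 and Gbp5), with a median of -0.29. The count of 5 moved to 8 without TAM_cycling and to 1 with the TAM labels weighted equally. All 5 B and plasma cell genes that reached the minimum were lower with a median of -3.30; the list summed to 164 CPM in Macro and 3740 in TAM_cycling, and its part in other results was not tested.

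**Figure D3:**
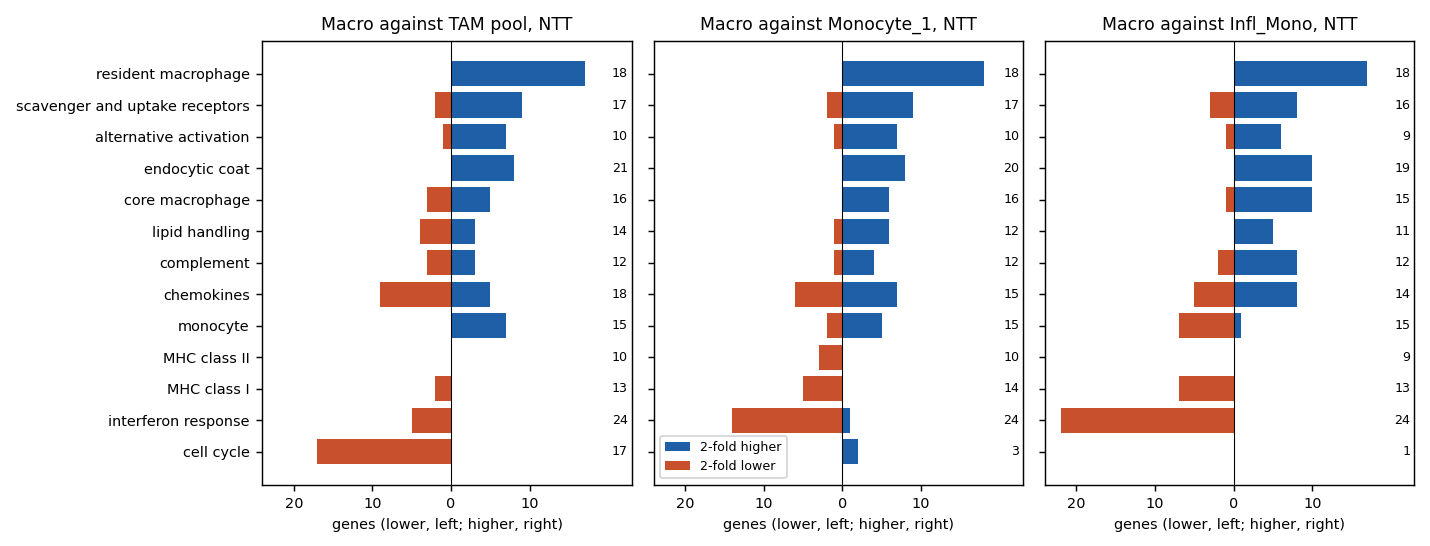
Number of genes of each list that were at least 2-fold higher (blue, to the right) or lower (orange, to the left) in NTT Macro than in the TAM pool, Monocyte_1 and Infl_Mono, with the number of genes of the list that reached 100 UMIs at the right edge of each panel. The resident macrophage list had 17, 18 and 17 of 18 genes higher, at median log2 ratios of 3.17, 4.56 and 5.13. Some of these genes reached 100 UMIs only with the UMIs of Macro. The interferon response list had 5, 14 and 22 of 24 genes lower, at medians of -0.29, -1.12 and -2.23.

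The TAM labels differed among themselves in how they stood to Macro. Against TAM_H2Ab1, 315 of 4205 genes were higher in Macro (7.49%) and 343 lower (8.16%), and against TAM_cycling, 346 of 4109 were higher (8.42%) and 560 lower (13.6%). Against TAM_Spp1, 214 of 2934 genes were higher (7.29%) and 365 lower (12.4%). Of the resident list, 17 of 18 genes were higher over TAM_H2Ab1 and TAM_cycling and 15 of 18 over TAM_Spp1, with 0 lower. Some of these again reached the minimum only with the UMIs of Macro. Monocyte genes differed between the labels: 12 of 14 were higher over TAM_H2Ab1 and 13 of 14 over TAM_cycling. Over TAM_Spp1 0 of 15 were higher and 6 lower, among them Cd44, Chil3, F10, Hp and Thbs1.

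TAM_Spp1 was nearer to Macro in the monocyte genes Ccr2, Fn1 and Lyz2 than TAM_H2Ab1 and TAM_cycling were. Ccr2 was at 1678 CPM in Macro, 1714 in TAM_Spp1, 73.9 in TAM_H2Ab1 and 83.2 in TAM_cycling. Its log2 ratio over TAM_Spp1 was -0.03 (-0.14 to 0.08). Fn1 was at 1792 CPM in Macro, 1970.1 in TAM_Spp1, 26.3 in TAM_H2Ab1 and 57.4 in TAM_cycling, and Lyz2, the lysozyme gene, at 11460.3, 13024, 1549 and 1161. In all 3 genes Macro and TAM_Spp1 were less than 2-fold apart and the 2 other labels were far below. The 17 TAM_C1q cells stood at 1246 CPM for Ccr2, 1479 for Fn1 and 5014 for Lyz2. The monocyte list summed to 11792 CPM in Macro, 7120 in TAM_C1q and 20156 in TAM_Spp1, so by this sum neither label stood out as the nearer one. Genes in which TAM_Spp1 exceeded Macro included Thbs1 (thrombospondin 1, log2 ratio -2.85, -3.0 to -2.70), the chitinase-like Chil3 (-2.34, -2.61 to -2.08), the lipopolysaccharide co-receptor Cd14 (-2.04, -2.21 to -1.87) and Vcan (-0.92, -1.14 to -0.71).

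Of 14 glycolysis and hypoxia genes, 0 were higher and 10 lower than in TAM_Spp1, with a median of -1.64; the glucose transporter Slc2a1 was at 86.4 and 421 CPM. Of 15 core macrophage genes, 9 were higher than in TAM_Spp1 and 1 lower (Cd14), with C1qa at 3654 and 1176 CPM (log2 ratio 1.64, 1.54 to 1.74) and Apoe at 10583 and 2878 (1.88, 1.82 to 1.94). Of 9 MHC class II genes, 4 were higher (Cd74, H2-Aa, H2-Ab1 and H2-Eb1) and 0 lower. C1qa went the other way against TAM_H2Ab1, at 9879 CPM there (log2 ratio -1.43, -1.49 to -1.38), and against TAM_cycling, at 8495 (-1.22, -1.28 to -1.16). Macro therefore lay between TAM_Spp1 and the 2 other labels in C1qa, and above all 3 in Mrc1, with log2 ratios of 2.23 over TAM_Spp1, 3.20 over TAM_H2Ab1 and 3.50 over TAM_cycling. Neutrophil genes summed to 4741 CPM in TAM_Spp1 and 222 in Macro, and their part in the differences was not tested.

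Against Monocyte_1, 434 of 5975 genes were at least 2-fold higher in Macro (7.26%) and 427 lower (7.15%), with a median log2 ratio of 0.08. TMM factors, which align the bulk of genes, shifted all ratios by -0.19 and gave 302 higher and 591 lower. All 18 resident macrophage genes that reached the minimum were higher with either scaling, with a median of 4.56. Lyve1, Cd163, Cbr2 and Folr2 reached it only with the UMIs of Macro, having 0, 13, 27 and 56 in Monocyte_1. The 10 genes farthest up were Lyve1, Cd163, Cbr2, Ednrb, Ccl8, Folr2, Gas6, Rcn3, Npl and Pf4. Lyve1 had 154 UMIs in Macro and 0 in Monocyte_1, a log2 ratio of at least 8.65 against the floor of 3 UMIs over the label. Cd163 was at 870 and 2.40 CPM, a log2 ratio of 8.50 (7.72 to 9.42), and Ccl8 at 5329 and 59.1 CPM, a log2 ratio of 6.50 (6.33 to 6.66).

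The 10 genes farthest below Monocyte_1 were Ocstamp, Rgs1, Mmp13, Spint1, Ly6i, Ifitm1, Il1r2, Gpr171, Klrb1b and Ccl5. Ifitm1, an interferon-induced membrane protein, was at 461 CPM in Macro and 14713 in Monocyte_1, a log2 ratio of -5.00 (-5.16 to -4.84). Il1r2, the interleukin 1 decoy receptor, was at 59.1 and 1545 CPM, a log2 ratio of -4.71 (-5.19 to -4.27), with 53.7% of its Macro UMIs in 1 cell. Ccl5, a T cell attractant, was at 69.1 and 972 CPM, a log2 ratio of -3.81 (-4.25 to -3.40), with 41.7% in 1 cell. Ocstamp, a fusion protein of osteoclasts, had 1 UMI in Macro and 1425 in Monocyte_1, a log2 ratio of -7.51 (-12.82 to -5.03).

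Of 24 interferon response genes, 14 were lower than in Monocyte_1 and 1 was higher (Rsad2, log2 ratio 1.26), with a median of -1.12. Isg15, a ubiquitin-like protein induced by interferon, was at 467 and 1360.2 CPM, a log2 ratio of -1.54 (-1.71 to -1.38), and the interferon regulatory factor Irf7 at 215 and 897 CPM, a log2 ratio of -2.06 (-2.31 to -1.83). Of 14 MHC class I genes 5 were lower, and of 10 MHC class II genes 3 were lower (Ciita, Ctss and H2-DMb1), with medians of -0.88 and -0.65. The class II chain gene H2-Ab1 was at 6143 and 11334 CPM, a log2 ratio of -0.88 (-0.93 to -0.84). C1qa was at 3654 and 4257 CPM and was not 2-fold apart. Of 15 monocyte genes, 5 were higher (C5ar1, Fn1, Itga4, S100a4 and Vcan) and 2 lower, Ms4a4c among them, with Ccr2 at 1678 and 1247 CPM. The list of chemokine genes gave 7 higher and 6 lower of 15, and Arg1 was at 1554 and 111 CPM, a log2 ratio of 3.81 (3.66 to 3.95).

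Against Infl_Mono, 422 of 4725 genes were at least 2-fold higher in Macro (8.93%) and 576 lower (12.2%), with a median of 0.07. TMM factors shifted all ratios by -0.29 and gave 243 higher and 850 lower. Of 18 resident macrophage genes 17 were higher and 0 lower, with a median of 5.13. Lyve1, Folr2, Cd163 and Cbr2 reached the minimum only with the UMIs of Macro, having 0, 3, 6 and 11 in Infl_Mono. The 10 genes farthest up were Folr2, Cd163, Gas6, Cbr2, Lyve1, Fcrls, Ccl8, Mgl2, Pf4 and Rcn3. Folr2 was at 808 CPM in Macro and at 3 UMIs in Infl_Mono, a log2 ratio of 9.73 (8.17 to 12.01). Cbr2 was at 1046 and 3.50 CPM, a log2 ratio of 8.22 (7.38 to 9.23). Mgl2, a galactose-type lectin, was at 392 and 2.54 CPM, a log2 ratio of 7.27 (6.27 to 8.49).

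The lower side was led by interferon genes. Of 24 interferon response genes 22 were lower and 0 higher, with a median of -2.23. Isg15 was at 467 CPM in Macro and 5246 in Infl_Mono, a log2 ratio of -3.49 (-3.65 to -3.33). Cxcl10, a T cell attractant, was at 138 and 1916 CPM, a log2 ratio of -3.79 (-4.10 to -3.50), and 83.3% of its Macro UMIs came from 1 cell. The 10 genes farthest down were Ifit3b, Ocstamp, Ifit1bl1, Slpi, Ly6i, Iigp1, Isg20, Mxd1, Ifit2 and Ifitm1. Slpi, a protease inhibitor, was at 47.5 and 1775 CPM with 54.5% of its Macro UMIs in 1 cell, a log2 ratio of -5.22 (-5.76 to -4.73), and Ifit2 was at 66.3 and 1067 CPM, a log2 ratio of -4.01 (-4.46 to -3.59).

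Of 15 monocyte genes, 1 was higher than in Infl_Mono (C5ar1) and 7 lower, among them Chil3, F10, Hp, Ms4a4c, Plac8 and Thbs1, with a median of -0.79. Ccr2 did not separate the labels, at 1678 and 1570 CPM, a log2 ratio of 0.10 (0.00 to 0.19). Core macrophage genes did, with 10 of 15 higher and 1 lower (Fcgr1), among them C1qa at 3654 and 1367 CPM and the surface marker Adgre1 (F4/80) at 605 and 125 CPM. Of 19 coat and sorting genes, from the list chosen after values had been seen, 10 were higher and 0 lower. The count of 10 fell to 6 with TMM factors. Of 9 MHC class II genes 0 were 2-fold apart, and of 13 MHC class I genes 7 were lower.

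Macro cells of NTT varied in the resident genes. The quartet Lyve1, Folr2, Cd163 and Cbr2, picked after values had been seen, was used to describe this. Of the 100 cells, 29 had no UMI of any of the 4 genes, 15 had UMIs of 1 gene, 13 of 2, 30 of 3 and 13 of 4. Thinned to 2000 UMIs, 38 of 97 cells had none. Without thinning, at least 1 of the 4 genes was found in 71 of 100 Macro cells, 14 of 17 TAM_C1q cells, 28.2% of TAM_cycling, 26.0% of TAM_H2Ab1, 11.4% of TAM_Spp1, 4.57% of Monocyte_1, 2.58% of Infl_Mono and 3.37% of NK cells. The deeper TAM_cycling and TAM_H2Ab1 cells (medians of 18157 and 12697 UMIs) had more chances to show 1 UMI. Thinned to 2000 UMIs, the shares were 60.8% in Macro, 10 of 16 cells in TAM_C1q, 5.83% in TAM_cycling, 7.69% in TAM_H2Ab1, 8.38% in TAM_Spp1, 1.81% in Monocyte_1, 1.17% in Infl_Mono and 1.22% in NK cells. The order of these 3 TAM labels thus turned with depth, while Macro and TAM_C1q stayed far above them. Median depth was also uneven inside Macro, at 4890 UMIs in cells with none of the 4 genes, 5091 in those with 1 or 2 and 7436 in those with 3 or 4, and the part of depth in this grading was not tested beyond the thinning.

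Levels of other genes moved with these classes. Ccl6 was at 4983 CPM in the 29 cells with none, 9545 in the 28 with 1 or 2 and 12618 in the 43 with 3 or 4, and Ccl9 at 1794, 2632 and 3284. Apoe was at 3006, 10336 and 14444 CPM, Maf at 182, 1767 and 2803, and C1qa at 912, 3301 and 5189. Ccl8 was at 23.5, 925 and 10232 CPM and Pf4 at 82.4, 1522 and 5696. Ccl8 had 4 UMIs in the class with none. In the class with 1 or 2, it was found in 8 of 28 cells, with 50.6% of its 166 UMIs in 1 cell. All genes of this group, from Ccl6 to Pf4, were lowest in the class without the quartet and highest in the class with 3 or 4. Single cells spread widely inside a class: Ccl6 ran from 218 to 17690 CPM with a median of 2936 in the class with none, and from 871 to 23568 with a median of 11633 in the class with 3 or 4.

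A second group of genes ran the other way. Vcan was at 612 (500 to 741), 485 (389 to 598) and 154 CPM (115 to 201) over the 3 classes. Its first 2 intervals overlapped, and 1 cell held 33.3% of its UMIs in the class with 1 or 2. Plac8 was at 3318, 2648 and 1084 CPM. H2-Ab1 was at 8972 and 9015 CPM in the first 2 classes and 3255 in the class with 3 or 4. Napsa, an aspartic protease, was at 512, 106 and 29.0 CPM. Cd209a, a C-type lectin of monocyte-derived and dendritic cells, was at 1159 CPM in the class with none, with 35.0% of its UMIs in 1 cell, and at 5.58 and 5.80 in the others. It was found in 12 of the 29 cells with none (41.4%, 23.5% to 61.1%) and in 3 of the 71 others (4.23%, 0.880% to 11.9%). Flt3 and Zbtb46, which define conventional dendritic cells, had 3 UMIs and 1 UMI in the class with none. The Cd209a level of Macro thus came chiefly from cells that lacked the quartet, although the gene is counted on the resident macrophage list above.

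**Figure D4:**
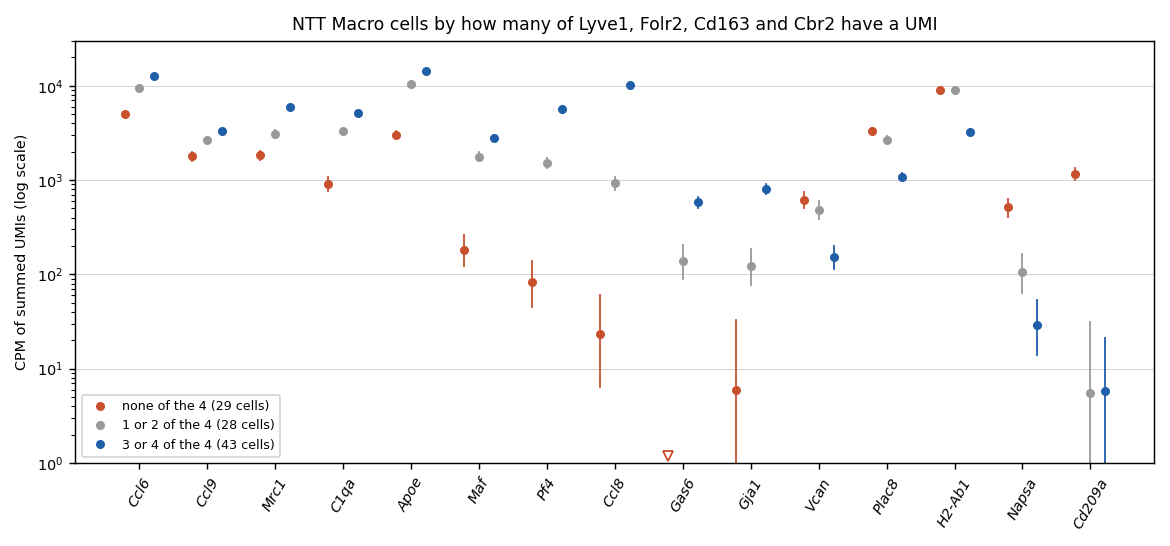
Level of genes in NTT Macro cells grouped by how many of Lyve1, Folr2, Cd163 and Cbr2 had a UMI (29, 28 and 43 cells), in CPM on a log axis; each point is the summed UMIs of a class, bars are exact 95% Poisson intervals, and the open triangle marks 0 UMIs. Ccl6 and Apoe were lowest in cells with none of the 4 genes (4983 and 3006 CPM) and Vcan and Plac8 highest there (612 and 3318 CPM).

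The whole profile of single Macro cells was then set against the mean profile of every NTT label over 5192 genes, leaving each cell out of its own mean. By Pearson correlation 79 of 100 Macro cells lay closest to the Macro mean, 9 to TAM_C1q, 8 to TAM_Spp1, 2 to cDC2, 1 to Monocyte_1 and 1 to Infl_Mono. In this setting all 9 cells nearest to TAM_C1q carried a quartet gene and all 8 nearest to TAM_Spp1 lacked the 4 genes. Of the 29 cells with none, 17 lay closest to Macro. By Spearman correlation 87 cells lay closest to Macro, 1 to TAM_C1q and 8 to TAM_Spp1. By Pearson correlation over the 1761 genes with at least 2000 UMIs the numbers were 77, 12 and 6. The number nearest to TAM_C1q thus depended on the setting. The summed Macro profile had a Pearson r of 0.94 with TAM_C1q, 0.90 with Monocyte_1 and TAM_Spp1, 0.88 with TAM_H2Ab1 and Infl_Mono and 0.85 with TAM_cycling, as a description over genes of 1 library. Among the 15 nearest cells in 30 principal components, 68.2% were Macro, 10.3% Monocyte_1, 9.60% TAM_Spp1, 4.73% TAM_C1q and 4.27% cDC2, while Macro was 3.36% of the library. That share was 35.6% for cells with none of the quartet and 81.5% for cells with at least 1 gene.

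Only 26 RTT cells were labelled Macro, fewer than 50, so their values are given with intervals and single cells weigh heavily. Ccl6 and Ccl9 were highest in Macro in RTT too. Ccl6 stood at 3990 CPM in RTT Macro (3696 to 4302), 717 in Monocyte_1, 634 in TAM_Spp1, 547 in Infl_Mono and 228 in TAM_C1q. Among other RTT labels, Ccl6 stood at 1263 CPM in 6 Monocyte_3 cells and 770 in 29 Neutro cells. Ccl9 stood at 1062 CPM (913 to 1229), 550 in Ctsk_Macro, 436 in Infl_Mono, 396 in TAM_Spp1 and 284 in TAM_C1q. Vcan stood at 35.2 CPM (6 UMIs, 83.3% of them in 1 cell), below Monocyte_1 at 232, Infl_Mono at 211 and TAM_Spp1 at 169. Vcan therefore did not mark Macro in RTT.

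Between the 2 sets of Macro cells, 40 of 1537 genes were at least 2-fold higher in RTT (2.6%) and 113 lower (7.35%), with a median of -0.04. Among the genes farthest up in RTT were Ifrd1 (log2 ratio 2.05, 1.52 to 2.57), H2afz, Nfkbia and the protease inhibitor gene Cst3 (1.38, 1.28 to 1.49). Those farthest down were Arg1, Gja1, Vcan, Ifitm1 and Cd163. Arg1 was at 17.6 CPM in RTT, 3 UMIs of 1 cell, against 1554 in NTT, a log2 ratio of -6.46 (-8.74 to -4.91). Of 19 resident macrophage genes 0 were higher in RTT and 8 lower, with a median of -0.50, and of 10 alternative activation genes 2 were higher and 6 lower. Mrc1 was at 1344 CPM in RTT and 4217 in NTT, while Apoe was at 11471 and 10583 and H2-Ab1 at 10398 and 6143.

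Of the 26 RTT Macro cells, 14 had no UMI of the quartet, 5 of 1 gene, 3 of 2, 4 of 3 and 0 of 4. At least 1 of the genes was found in 46.2% of RTT Macro, 76.8% of TAM_C1q, 64.6% of TAM_cycling and 41.7% of TAM_H2Ab1. The share was 38.3% in Infl_Mono, 13.1% in TAM_Spp1 and 5.05% in Monocyte_1. Thinned to 2000 UMIs, it was 38.5% in Macro, 53.8% in TAM_C1q and 35.8% in TAM_cycling. The share of cells with a quartet gene thus did not set Macro apart from TAM_C1q in RTT. Cbr2 stood at 951 CPM in RTT Macro, near its NTT level of 1046, and Folr2 at 581 against 808. A single cell held all 16 Lyve1 UMIs, all 79 Retnla UMIs and 56.6% of the 99 Folr2 UMIs. Another cell of 10666 UMIs held all UMIs of Ccl5, Cxcl9, Iigp1 and Arg1, 88.5% of Cd163 and 60.6% of Ccl8. Cd163 UMIs were found in 3 cells, Ccl8 in 5 and Folr2 in 9, and the other genes named had UMIs in 1 cell. RTT values of Lyve1, Retnla, Ccl5, Cxcl9, Iigp1 and Arg1 thus describe 1 cell each.

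Against 3703 RTT TAM cells, 800 of 9220 genes were at least 2-fold higher in Macro (8.68%) and 1224 lower (13.3%). This pool was 51.9% TAM_C1q by UMIs, against 2.60% in NTT, so both ratios do not share a comparison population. Ccl6 was 3.94 above the pool in NTT and 4.04 in RTT on the log2 scale, Clec10a 4.40 and 4.52, and Cbr2 5.80 and 1.95. In RTT Macro 1 cell held 47.9% of the 73 Clec10a UMIs, 1 cell 37.0% of the 162 of Cbr2 and 1 cell 23.8% of the 680 of Ccl6. The Cbr2 level of the pool itself was 18.8 CPM in NTT and 246 in RTT. Of 91 genes compared in both libraries, 19 were 2-fold higher in Macro in both, 12 lower in both and 10 went 2-fold in opposite directions. Many of the 91 had been named for their distance from 0 in NTT. The counts therefore follow in part from that choice, and the shares over all genes are not given. Of 24 interferon response genes 18 were higher and 0 lower than in the RTT pool with a median of 2.35. Single cells weighed on some of them: the same cell held all 53 Cxcl9 UMIs and 64.3% of the 14 Gbp2 UMIs of RTT Macro. For Irf7, 1 cell held 14.3% of 56 UMIs. The count therefore does not describe all 26 cells alike. Isg15 was 2.54 above the RTT pool (2.23 to 2.85), with 23.3% of its Macro UMIs in 1 cell. Of 12 MHC class II genes, 9 lay above the pool, H2-Ab1 by a log2 ratio of 1.99 (1.93 to 2.06). Of 18 resident macrophage genes 11 were higher and 1 lower, with a median of 1.19 over a median of -0.01 for all genes.

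**Figure D5:**
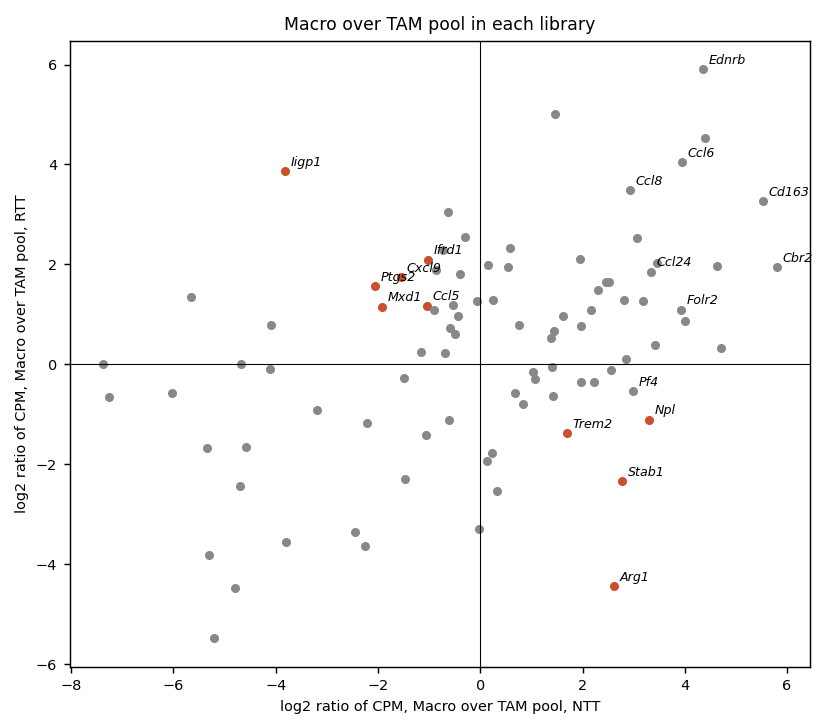
Log2 ratio of Macro over the TAM pool in NTT (horizontal) and RTT (vertical) for 91 genes, 1 point a gene and without intervals; the 10 genes in orange were 2-fold apart in opposite directions. Ccl6 lies at 3.94 and 4.04, Cbr2 at 5.80 and 1.95, and Arg1 at 2.62 and -4.44.

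Markers of T, NK, B and stromal cells and neutrophils were low in NTT Macro. The list for cDC2 and DC3 stood higher there than in TAM_H2Ab1 and TAM_Spp1, chiefly through Cd209a. The T and NK cell list had 5 of 12 genes with a UMI and 34 UMIs in all (49.0 CPM, against 20528 in NK cells), with Cd3e, Cd3d, Cd3g, Trac, Gzma, Ncr1 and Il2rb at 0. The B and plasma list had 4 of 7 genes with a UMI (164 CPM) and Cd79a, Ms4a1 and Mzb1 at 0. The list for cDC2 and DC3 had 8 of 9 genes with a UMI and 351 CPM, against 1233 in cDC2, 6153 in DC3, 20.9 in TAM_H2Ab1 and 75.8 in TAM_Spp1. Of its 244 UMIs in NTT Macro, 200 were of Cd209a, which stood at 288 CPM in Macro and 762 in cDC2. In RTT Macro the list summed to 481 CPM, with Cd209a at 276, and its part in other results was not tested. Fibroblast genes summed to 16 UMIs, endothelial genes to 24, with Egfl7 and Plvap at 0, and of 2 melanoma genes Pmel, which defines melanocytic cells, was at 0 and the transcription factor gene Mitf, which macrophages also express, had 25 UMIs (36.0 CPM, against 31.1 in TAM_Spp1 and 13.8 in Monocyte_1 for the list). Neutrophil genes summed to 222 CPM against 91589 in Neutro. Core macrophage genes summed to 36641 CPM in Macro, between 17317 in TAM_Spp1 and 52578 in TAM_C1q, and monocyte genes to 11792 CPM, between 1647 in TAM_cycling and 22837 in Infl_Mono.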

How the data were processed

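Gene counts of 2 libraries (NTT and RTT, 1 each) and a table of cell labels were used. Per the labels and the methods of the study, reads were processed by the authors with Cell Ranger 6.1.1 on mm10, cells with few genes or many mitochondrial or ribosomal reads were removed, and labels were assigned to clusters of a joint map with batch correction. The deposited values are raw UMI counts of 12584 genes in 7815 cells; 0 columns of values were left unused. Members, gene lists and comparisons were chosen with earlier results of these data known; the coat list, the resident quartet and the AGGAAG motif were chosen after values or sequences were seen.

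Counts were summed per label and library and given as CPM. Ratios have exact binomial intervals, CPM exact Poisson intervals and shares Clopper-Pearson intervals, all at 95%. A gene entered a comparison with at least 100 UMIs over both sets and was counted at a log2 ratio of 1 or more, a 2-fold difference, with no test. A set at 0 was given a floor of 3 UMIs over the label. Genes named are the panel of 60 (58 in the matrix), the 10 in each direction whose interval lay farthest from 0 (no more than 25% of the UMIs of the higher set in 1 cell), the 15 leading genes, 5 in each direction between libraries, and members of counted lists. Genes named outside the rule were chosen after their values were seen.

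Cells were thinned to 2000 UMIs without replacement for shares. Nearest labels used genes with at least 500 UMIs; neighbours used 2000 variable genes. Scrublet called 0 cells in both libraries, which is taken as a caller that did not work, so doublets were not removed here. The ratio script was tested on simulated data. Tools were Python 3.11.15, numpy 2.4.6, scipy 1.17.1, pandas 2.3.3, scanpy 1.11.5, scikit-learn 1.9.0, matplotlib 3.10.9 and R 4.3.3 with edgeR 4.0.16 (TMM) and DESeq2 1.42.0 (size factors) for scaling only. Values of a few single genes are not reported here.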

Additional observations from a re-analysis of the deposited data

Results flagged for a closer look

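For 10 of the 91 genes compared, Macro lay at least 2-fold above the TAM pool in one library and at least 2-fold below it in the other. Many of the 91 had been named for their distance from 0 in NTT and the share over all genes is not given, so the count is a description only. The difference between libraries was not tested, since each had 1 library, and the TAM pool was made up of other labels in RTT (51.9% TAM_C1q by UMIs) than in NTT (2.60%). Values are log2 ratios of Macro over the TAM pool, first in NTT and then in RTT. Arg1 was at 2.62 and -4.44, Npl at 3.3 and -1.11, Stab1 at 2.78 and -2.34 and Trem2, a lipid receptor, at 1.70 and -1.38. The other genes were lower in NTT and higher in RTT. Ccl5 was at -1.04 and 1.17, Cxcl9 at -1.55 and 1.75 and Iigp1, an interferon-induced GTPase, at -3.81 and 3.86, and all RTT Macro UMIs of these 3 genes and of Arg1 came from the same cell. Ifrd1 was at -1.02 and 2.10, Mxd1 at -1.92 and 1.15 and Ptgs2, the cyclooxygenase 2 gene, at -2.05 and 1.57, with 64, 9 and 13 UMIs in RTT Macro. In RTT Macro, Npl and Stab1 had 14 and 18 UMIs, 57.1% and 44.4% of them in 1 cell. The Mxd1 interval in RTT ran from 0.02 to 2.08. Other RTT intervals that reached inside 2-fold were those of Npl (-1.98 to -0.37), Ccl5 (0.80 to 1.51) and Ptgs2 (0.65 to 2.35). In NTT those of Ccl5 (-1.49 to -0.62) and Ifrd1 (-1.41 to -0.65) did so.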

How the results depend on the processing

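The 2-fold counts depended on the minimum of UMIs and on depth, and less on which Macro cells entered. Without a minimum the counts of higher and lower genes were 1189 and 1170 over the TAM pool, 1743 and 784 over Monocyte_1, 2280 and 956 over Infl_Mono, 1577 and 1006 over TAM_H2Ab1, 1711 and 1150 over TAM_Spp1, 1453 and 1575 over TAM_cycling and 1146 and 1074 for RTT over NTT. With at least 500 UMIs they were 99 and 186, 103 and 177, 87 and 256, 66 and 105, 53 and 74, 84 and 115 and 5 and 26 in the same order, and 383 genes were higher over the RTT pool. With cells thinned to 2000 UMIs they were 96 and 178, 226 higher, 143 higher, 82 and 88, 75 and 154, 84 and 71 and 11 and 40, and 757 genes were lower than the RTT pool. Higher genes over Infl_Mono numbered 243 with TMM factors and 263 with DESeq2 size factors, and those over the RTT pool 1559 by the mean of CPM per cell. Cells with a quartet gene gave 26 and 75 for RTT over NTT. Of the resident list, 11, 11 and 10 genes were higher at 500 UMIs over the TAM pool, Monocyte_1 and Infl_Mono, and 11 over Infl_Mono after thinning. Interferon genes lower than the TAM pool numbered 2 at 500 UMIs, 1 with equal weights and 8 without TAM_cycling, and coat genes over Infl_Mono 6 with TMM factors. Without Cd209a, 16, 17 and 16 resident genes were higher over the TAM pool, Monocyte_1 and Infl_Mono, of 17 each. Mki67 and Top2a changed sign without TAM_cycling, to 0.38 and 0.36. Shares with a UMI were 100% unthinned and 93.0% at 1000 UMIs for Ccl6, 98.0% and 81.0% for Ccl9, 19% at 1000 for Vcan, 47.0% unthinned for Cd163 and 62.0% and 39.0% for Cbr2. Fewer genes, UMIs or cells enter these settings by construction; the cause of the other shifts was not tested. TMM and DESeq2 factors shifted ratios over TAM_Spp1 by -0.14 and -0.15. Of the 47 leading genes, 45 were shared with the 45 found with at least 1500 detected genes per cell. Without the 5% of Macro cells with most UMIs, 44 genes led and 43 were shared. Cells nearest the Macro mean gave 44 with 43 shared, and cells with a quartet gene 56 with 46 shared. These last 2 sets of cells were chosen on the Macro profile or on leading genes themselves, so their overlap follows in part from the choice. Scrublet gave no alternative, having called 0 cells. No paired analysis was possible because each condition had 1 library. With 1 library per condition and 26 RTT Macro cells, counting intervals leave out the spread between tumours.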
